A study of Mus musculus with 54 samples.

Results

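The long Ser5P polymerase domains of cardiomyocytes are stretches of the mouse genome in which called regions of RNA polymerase II phosphorylated on serine 5 (RNAPII Ser5P) followed each other with gaps of at most 1 kb over 5 kb or more. They were selected on the called regions of both CM libraries, on chromosomes 1 to 19 and X, by joining regions across the lists and keeping each joined domain of at least 5 kb that held a region of each library. This gave 375 domains, out of 5650 joined domains of any length with a region of both libraries and 11887 with a region of either. Since these lists chose the domains, every RNAPII Ser5P value at CM is given below as a description and carries no test.

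Mouse stem cells (129/Ola) were led towards heart muscle as embryoid bodies in serum-free medium, regrouped with human VEGF, Activin A and BMP4, and then plated with VEGF, human basic FGF and FGF10. Cultures were sampled as ESC (embryonic stem cells, day 0), MES (mesodermal cells, day 4), CP (cardiac precursors, day 5.3) and CM (cardiomyocytes, day 10), with no genetic change or vehicle group, and the labels name no sorting step. RNAPII Ser5P was mapped by ChIP-seq (chromatin immunoprecipitation and sequencing) in 1 ESC library and 2 libraries of each later stage, H3K4me3 and H3K27ac in 2 per stage, H3K4me1 in 3 per stage, and H3K27me3 in 2 ESC libraries and 3 of each later stage. Replicates are biological per the series' design. A culture can hold several cell types, so fewer cells with polymerase at a site and less polymerase per cell cannot be told apart here. Positions are those of the mm9 build; no annotation of that build was used, so the domains carry no gene names and the labelled cell types were not checked against marker genes.

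Serine 5 in the tail of the polymerase's largest subunit is phosphorylated as transcription begins, so this form of the enzyme is best known from the start of genes and from the stretch just after it. At genes that are transcribed very heavily it can also be recovered over much of the gene body. H3K4me3 marks promoters, H3K27ac marks active promoters and enhancers, H3K4me1 marks enhancers and the flanks of promoters, and H3K27me3 is placed by the Polycomb repressor at developmental genes that are kept off. A promoter with both H3K4me3 and H3K27me3 is called bivalent and is common in stem cells.

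The 375 domains spanned 5.53 Mb. Their median length was 10150 bases, with quartiles of 6637.5 and 17575 bases, and the longest had 141000 bases. Of the 375, 193 had 10 kb or more, 75 had 20 kb or more and 8 had 50 kb or more, while the 5275 shorter domains had a median of 925 bases. Domains just inside the limit were chr8:96702276-96707275, chr9:107954751-107959750 and chr14:70474026-70479025, each of 5000 bases. Those just outside were chr10:13684001-13688950 with 4950 bases, and chr15:82952351-82957275 and chr16:24391951-24396875 with 4925 bases each. Long domains made up between 2.94% of the joined domains on chromosome X (4 of 136) and 11.8% on chromosome 17 (33 of 280). They also lay near each other: 43 pairs of neighbouring long domains were at most 50 kb apart, 12 of them at most 2 kb apart, so that 1 stretch of polymerase can count as several domains.

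The CM lists differed strongly in how far a region reached. Replicate 1 covered a mean of 19.5% of a long domain's bases (median 13.7%), and replicate 2 covered 86.3% (median 89.7%). Replicate 1 covered at least 50% of the bases in 30 domains and replicate 2 in 370. A single called region of 5 kb or more lay in 9 of the 375 domains in replicate 1 and in 210 in replicate 2. The length of a domain therefore rests on replicate 2: taken alone, replicate 2 gave 438 domains of 5 kb or more genome-wide and replicate 1 gave 53, and 36 domains had 5 kb or more covered by each library. The lowest peak height in the lists was 9 in replicate 1 and 28 in replicate 2. What sets the lists apart was not tested, and no read totals were at hand. In 2 domains, found after the values were seen at chr8:127416826-127422375 and chrX:166422776-166437450, replicate 1 covered more than replicate 2.

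**Figure D1:**
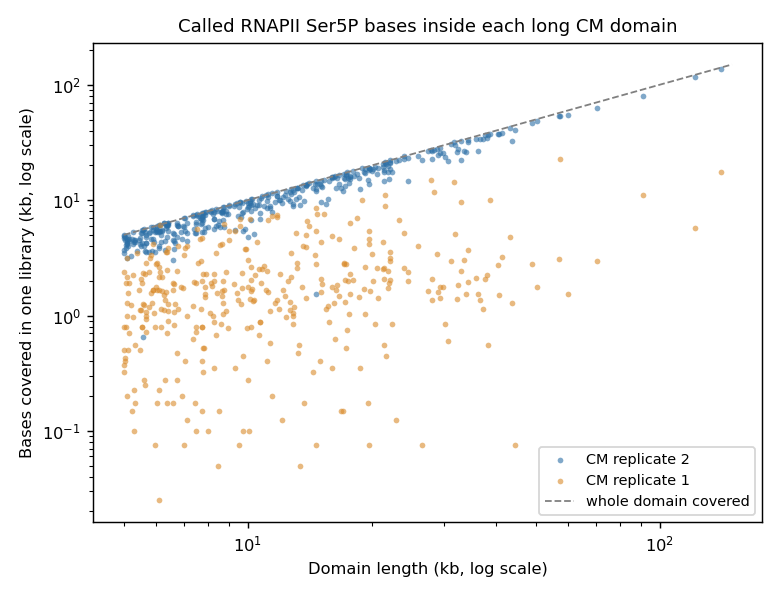
Bases inside called RNAPII Ser5P regions (kb, log scale) against domain length (kb, log scale) for the 375 long CM domains, 1 point per domain and CM library; the dashed line marks a wholly covered domain. Replicate 2 follows the line, with 86.3% of the bases covered on average, while replicate 1 lies below it, with 19.5%.

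Both CM libraries nevertheless placed their strongest signal at the same spot in most domains. The highest point of replicate 1 and that of replicate 2 lay within 1 kb of each other in 292 of the 375 domains (77.9%). That point fell inside an H3K4me3 region shared by both CM libraries in 291 domains for replicate 1 and 285 for replicate 2, and inside a shared H3K27ac region in 295 and 294. So in most domains the highest point of each CM list lay on a promoter-type mark. Signal along the rest of a domain was not measured. These counts were not taken over all domains, of which 94.1% had H3K4me3 in both CM libraries, so they mark no trait of long domains.

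Most long domains carried H3K4me3, the promoter mark, at one end. It was present, by at least 1 base in each CM library, in 317 of the 375 (84.5%), a smaller share than the 94.1% of all 5650 domains. Of these 317, 219 held a single block of H3K4me3, 78 held 2 blocks and 20 held 3 or more, up to 6. The longest block had a median of 2575 bases and took up 23.4% of the domain. Its nearer edge lay a median of 25 bases from the end of the domain, and its other edge lay 6675 bases from the opposite end. In 282 of the 317 (89.0%) the block came within 1 kb of an end, and in 289 the long side was at least 4 times the short one. The block sat at the end of lower coordinate in 156 of the 317, close to an even split.

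H3K27ac lay over the same end and H3K4me1 beside it. In the 317 domains read from the end nearest the longest H3K4me3 block, a choice of end that uses H3K4me3 but no other mark, H3K27ac of CM replicates 1 and 2 covered 88.3% and 93.7% of domains at 1 kb and 22% and 28.1% at 5 kb. H3K4me1 in CM replicates 1, 2 and 3 covered 11%, 17.7% and 7.26% of domains at 1 kb, where H3K4me3 covered 87.7% and 84.9% in CM replicates 1 and 2, and 24.9%, 34.7% and 21.8% at 4 kb. RNAPII Ser5P of CM replicate 1 covered 67.5% of domains at 1 kb, 19.2% at 5 kb and 9.43% at 10 kb, while CM replicate 2 covered 95.3%, 81.8% and 90.6%. Earlier libraries, which did not choose the domains, also covered more near that end: at 1 kb and at 10 kb, RNAPII Ser5P covered 64.4% and 42.1% in ESC replicate 2, 71.3% and 44.7% in MES replicate 2, and 73.5% and 50.3% in CP replicate 2. At 10 kb the values are over the 159 domains that reach so far. H3K27me3 was under 2% at each of these distances in every CM library.

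**Figure D2:**
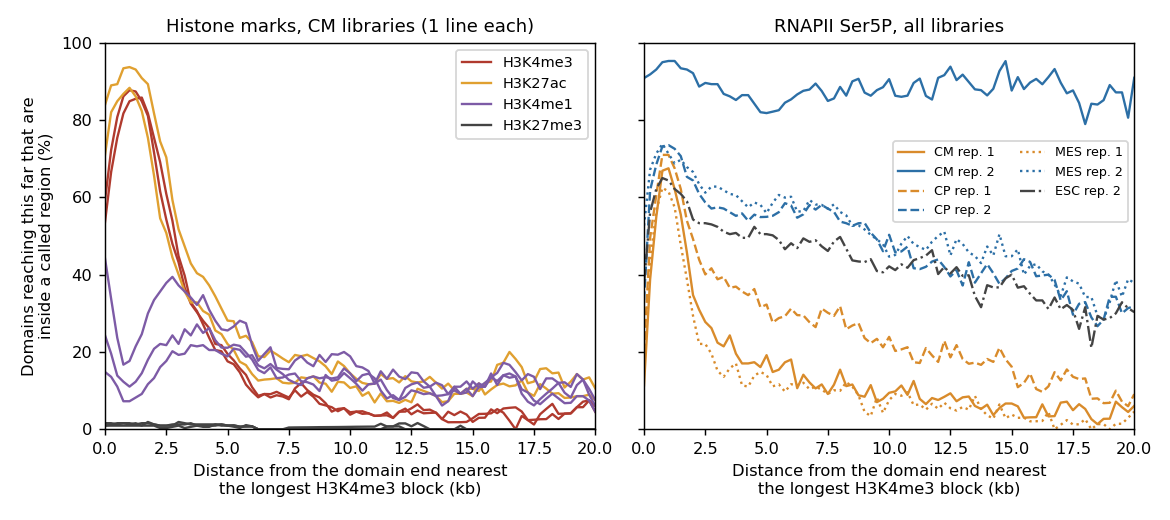
Share of long CM domains with H3K4me3 in both CM libraries (percent, 317 domains at the start and 66 at 20 kb) that lie inside a called region, by distance in kb from the domain end nearest the longest H3K4me3 block, with CM histone libraries on the left and RNAPII Ser5P libraries of all stages on the right. H3K4me3 and H3K27ac peak near 1 kb, H3K4me1 dips there, and RNAPII Ser5P of CM replicate 2 stays high along the whole domain.

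Polymerase was already present in most of these domains before the cardiomyocyte stage. RNAPII Ser5P overlapped 320 of the 375 (85.3%) in ESC, 306 in both MES libraries and 346 in both CP libraries, and 287 (76.5%) held it in all 5 libraries from before CM. Among all 5650 domains that share was 79.4%, so long domains did not stand out by earlier presence. Presence asks for 1 base only and is met more easily in a longer domain, which bears on each share of long domains set against all domains below. Cover, the percent of a domain's bases inside called regions, says more about spread. Its mean over the long domains was 45.2% in ESC replicate 2, 17.0% and 52.8% in MES replicates 1 and 2, and 33.7% and 51.4% in CP replicates 1 and 2.

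The libraries with the same replicate number gave different orders of the stages. In replicate 2, ESC, MES and CP lay close together and CM lay above them by construction; CP minus MES averaged -1.44 percentage points over the long domains, with 142 covered more at CP and 196 covered more at MES. In replicate 1, CP minus MES averaged 16.7 points, with 300 domains covered more at CP and 53 covered more at MES, and CM lay below CP, at 19.5% against 33.7%. A joined region of 5 kb or more overlapped 181 of the long domains in ESC replicate 2, 28 and 211 in MES replicates 1 and 2, 133 and 214 in CP replicates 1 and 2, and 47 and 365 in CM replicates 1 and 2. Genome-wide the same libraries held 2150 such joined regions in ESC, 85 and 2026 in MES, 414 and 739 in CP, and 53 and 438 in CM. Long polymerase stretches were thus most numerous in the lists of ESC and MES replicate 2, not in CM, and among replicate 1 lists in CP. The lists of ESC and MES replicate 2 also held the most called regions, 48837 and 37721, against 11332 and 12805 in CM replicates 1 and 2. Of each list's joined regions, long ones made up 7.90% in ESC, 0.492% and 9.02% in MES, 2.16% and 4.96% in CP, and 0.583% and 4.82% in CM. How far list size sets the counts was not tested.

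**Figure D3:**
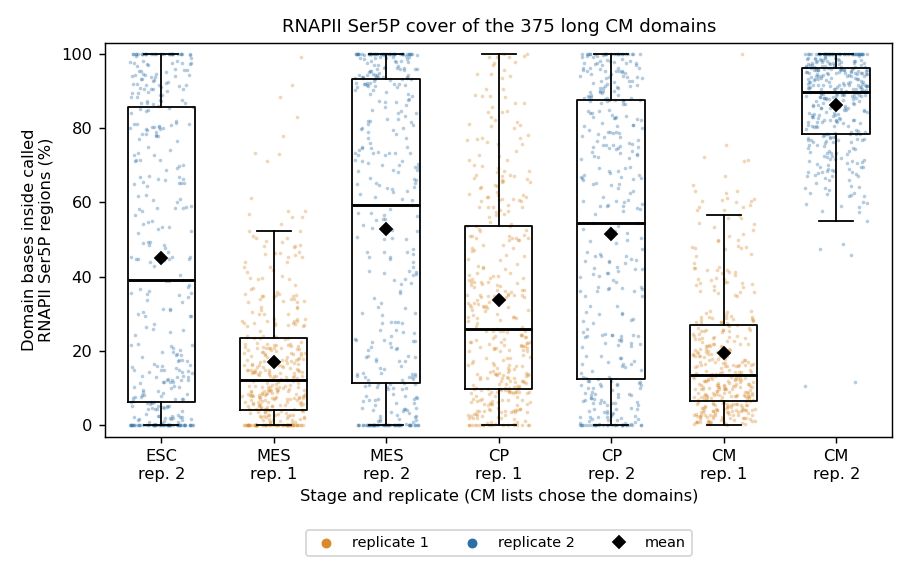
Percent of bases of each of the 375 long CM domains inside called RNAPII Ser5P regions, by stage and replicate; boxes give quartiles with whiskers to the farthest value within 1.5 box heights, diamonds the means, points single domains. Means run from 17.0% in MES replicate 1 to 86.3% in CM replicate 2, and the CM libraries chose the domains.

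CP was compared with MES domain by domain with limma over the 5 libraries of ESC, MES and CP. Of 359 long domains tested, 1 was called higher at CP (0.279%) and 0 lower, at an adjusted p under 0.05, against 0.279% higher and 0.41% lower among all 5372 domains tested, so the long domains showed no more calls than the rest. At an unadjusted p under 0.05, 17 long domains were higher and 4 lower. These were 21 of the 359, against 684 of all 5372 in either direction, a smaller share than over all domains. The median difference was 5.81 points over the long domains and -4.17 points over all. The single call was chr18:61803276-61813525, of 10250 bases, named here after its value was seen. It had no RNAPII Ser5P in ESC or in either MES library, 97.6% and 100% cover in CP replicates 1 and 2, and 16.6% and 100% in CM replicates 1 and 2 (CP minus MES 98.8 points, SE 1.81). Domains were tested where at least 2 libraries held RNAPII Ser5P, and this one met that filter only through the CP libraries in which it is high, so its call is given as a description. Leaving out any one of the CP or MES libraries, or fitting the replicate number, left 0 calls, and 7 long domains were called higher on a log2 scale.

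A small class had no called polymerase before CP. RNAPII Ser5P was in no ESC and no MES library in 36 of the 375 domains (9.6%), against 5.75% of all 5650. Of the 36, 21 had it in both CP libraries, 7 in 1 of them and 8 in neither. The 21 made up 5.6% of the long domains, against 1.72% of all domains, and the 8 made up 2.13%, against 3.15%. The choice of presence mattered here: with at least 10% of the bases required, 18.9% of long domains counted as free of polymerase in ESC and MES. H3K4me3 in both CM libraries was found in 17 of these 36 domains and in 267 of the 287 with polymerase in every earlier library. H3K27ac in no ESC library and both CM libraries was found in 11 of the 36 and in 0 of the 287. Over all 5650 domains, whatever their polymerase, the H3K4me3 share was 94.1% and the H3K27ac share 3.47%. These counts were not taken in the same polymerase classes of all domains, so they mark no trait of long domains.

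The 2 longest domains of all belonged to 1 stretch. They lay at chr2:76529001-76670000 and chr2:76671151-76793250, of 141 and 122 kb, with 1150 bases between them. In the 141 kb domain RNAPII Ser5P cover was 0.0709% in ESC, 0% in both MES libraries, 31.9% and 74.6% in CP replicates 1 and 2, and 12.4% and 97.1% in CM replicates 1 and 2. Its 122 kb neighbour had 0% in ESC and MES, 19% and 42.2% in CP, and 4.67% and 96.2% in CM. Both CP libraries lay above all 3 earlier libraries in each of them, but CP replicates differed so much that neither was called in the limma test of CP against MES (adjusted p = 0.454 and 0.434). Histone marks covered little of either: no library of H3K4me3, H3K27ac or H3K4me1 reached 4% of the 141 kb domain, and the 122 kb domain held no H3K4me3 or H3K27ac in any CM library. H3K27me3 was absent from both in all 11 libraries.

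The third and the eleventh longest lay close together on chromosome 8, at chr8:34873576-34964850 and chr8:34986876-35030800. In the first, of 91.3 kb, RNAPII Ser5P cover was 58.3% in ESC, 3.81% and 53.1% in MES, 61.4% and 83.5% in CP, and 12.1% and 88.0% in CM, so replicate 1 was highest at CP. H3K4me3 covered 0% of it in both CM libraries and 2.71% and 5.09% in the ESC libraries. The second, of 43.9 kb, held H3K27ac at every stage. It covered 35.7% and 46.5% in ESC, 10.2% and 24% in MES, 39.0% and 50.8% in CP, and 39.8% and 63.7% in CM. H3K4me1 covered 55.9%, 65.7% and 45.8% of the second in the CM libraries, against 34.0%, 46.2% and 34.9% in ESC. H3K4me3 covered 23.0% and 32.7% of it in ESC and 6.15% and 2.11% in CM (adjusted p = 0.212 with limma).

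A stretch of 3 long domains on chromosome 17 held polymerase with and without H3K4me3. The domain at chr17:10367951-10438450, of 70.5 kb, had RNAPII Ser5P cover of 16.1% in ESC, 0% and 20.8% in MES, 14.0% and 63.9% in CP, and 4.22% and 88.8% in CM, with H3K4me3 and H3K27ac at 0% in every library of every stage. The next long domain, chr17:10439501-10453175, of 13675 bases, began 1050 bases further on and also had no H3K4me3 or H3K27ac in any library. The last of the 3, at chr17:10456501-10513500, of 57 kb, began 3325 bases after that and carried H3K4me3 over 9.74% and 20.4% of its bases in CM and over 5.18% and 6.67% in ESC. RNAPII Ser5P cover of this 57 kb domain was 7.24% in ESC, 4.17% and 10.0% in MES, 10.6% and 53.0% in CP, and 5.39% and 93.3% in CM.

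Of the 12 longest domains, 2 had far more H3K4me1 at CM than at ESC. The domain at chr13:12373301-12433175, of 59.9 kb, had RNAPII Ser5P over 0.376% to 0.960% of its bases in the 5 libraries before CM and over 2.55% and 92.2% in CM replicates 1 and 2. Its H3K4me1 cover was 26.8%, 37.4% and 36% in CM, against 2.71%, 0.960% and 0% in ESC (difference 32.2 points, SE 3.28, adjusted p = 0.000159 with limma over all domains). H3K27ac covered 21% and 43.9% of it in CM, against 4.01% and 1.59% in ESC, and did not pass the test (adjusted p = 0.171). The domain at chr17:12932326-12975575, of 43.3 kb, had H3K4me1 over 48.6%, 49.1% and 48.8% of its bases in CM and 0% in all 3 ESC libraries (difference 48.8 points, SE 4.22, adjusted p = 4.63e-05 with limma). Its RNAPII Ser5P cover was 1.16% in ESC, 4.86% and 2.66% in MES, 52.3% and 80.7% in CP, and 11% and 98% in CM. The groups did not overlap for H3K4me1 in either domain.

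The domain at chr14:55547401-55604725, of 57.3 kb, had the highest RNAPII Ser5P cover in CM replicate 1 of the 12 longest. That cover was 0% in ESC and both MES libraries, 34.7% and 8.68% in CP, and 39.4% and 94.1% in CM. H3K4me3 covered 11.8% and 10.1% in CM, against 3.58% and 4.97% in ESC (adjusted p = 0.457), and H3K27ac 15.8% and 12.9% in CM, against 7.59% and 3.14% in ESC (adjusted p = 0.142, limma). The remaining 3 of the 12 longest were unlike each other. The 50.3 kb domain at chr18:61714301-61764625 already had 79.1% RNAPII Ser5P cover in ESC, the 48.9 kb domain at chr12:110778826-110827725 had 4.81%, and the 44.5 kb domain at chr17:81760726-81805250 had 0%. The last of these had 0.842% and 0.168% at CP, and 0.168% in CM replicate 1 against 91.4% in CM replicate 2, so it qualified through a sliver of replicate 1.

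**Figure D4:**
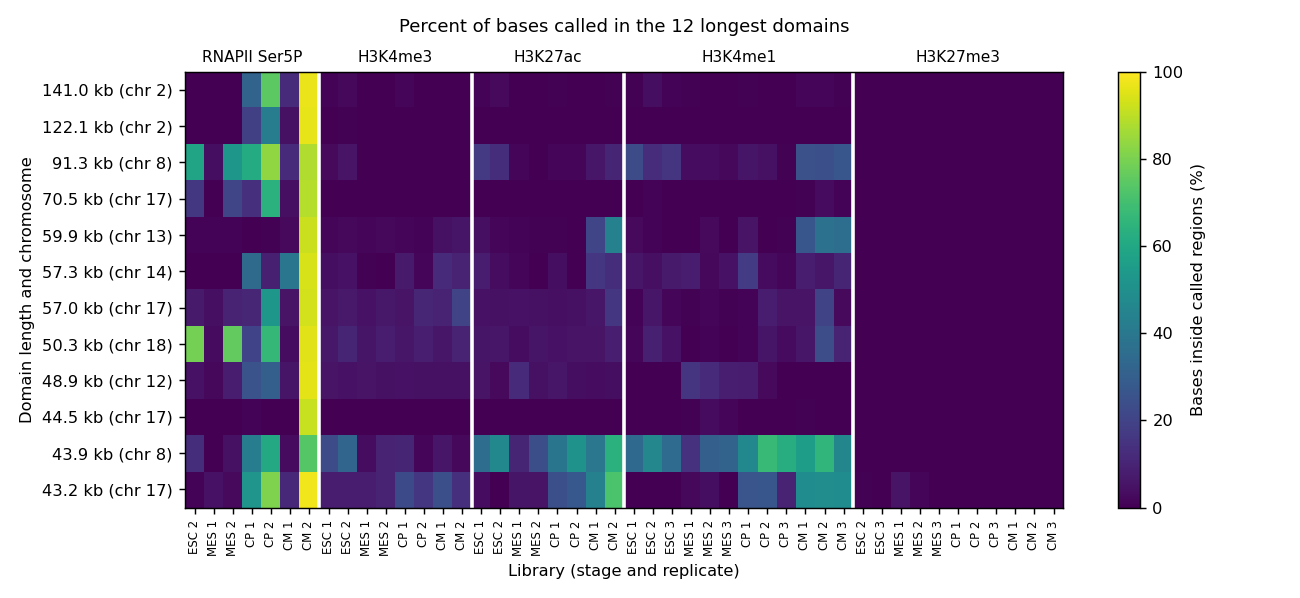
Percent of bases inside called regions (colour) in the 12 longest CM RNAPII Ser5P domains (rows, by length) in each library (columns, by target, stage and replicate). RNAPII Ser5P in CM replicate 2 is high in all 12, from 73.8% to 98%, and H3K27me3 is at most 5.32% throughout. The other histone marks reach 20% of the bases in at least 1 library in some rows and in no library in others.

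A further 3 domains had the same late pattern as the 122 kb one, with RNAPII Ser5P in no ESC and no MES library and in both CP libraries. At chr1:137749851-137770525, of 20.7 kb, the CP cover was 41.1% and 46.8% (CP minus MES 44 points, SE 2.89, adjusted p = 0.0795 with limma), and the CM cover was 6.89% and 91.2%. At chr16:38368351-38386425, of 18.1 kb, it was 10.8% and 24.2% in CP and 21.3% and 90.5% in CM, and at chr17:82092801-82115650, of 22.9 kb, 6.35% and 0.766% in CP and 0.547% and 95.0% in CM. All 3 lacked H3K4me3 in both CM libraries, against 2.18% and 2.30%, 4.43% and 4.29%, and 0.766% and 0.985% of their bases in the ESC libraries. All 6 MES, CP and CM libraries were at 0% H3K4me3 in each of them, so they entered the limma test of H3K4me3 only through the ESC libraries in which they are high, and no p is given for these differences of 0.875 to 4.36 points.

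Where RNAPII Ser5P was in no library before CM, the marks differed from domain to domain. The longest of the 8 was chr10:74635551-74655575, of 20025 bases, with CM cover of 17.1% and 89.3%. At chr8:11469051-11480125 RNAPII Ser5P covered 14.9% and 100% in CM, and H3K27ac covered 57.1% and 67% in CM, against 3.16% and 0% in ESC (difference 60.5 points, SE 4.19, adjusted p = 0.00482 with limma). The same 11.1 kb domain carried Polycomb's mark until CP: H3K27me3 covered 21.4% and 0% in ESC, 41.8%, 46% and 17.2% in MES, 79.9%, 65.7% and 49.2% in CP, and 4.97%, 0% and 0% in CM. At chr8:107150051-107157625, of 7.58 kb, RNAPII Ser5P covered 37.6% and 95.4% in CM, and H3K27ac covered 61.1% and 60.7% in CM and 0% in both ESC libraries (60.9 points, SE 4.03, adjusted p = 0.00414). H3K27me3 there was 24.1%, 18.8% and 2.97% in CP and 0% in all CM libraries. At chr14:120687051-120694525 no CM library had H3K4me3, while H3K4me1 covered 56.9%, 59.9% and 72.2% in CM and 0% in every ESC library (63 points, SE 4.28, adjusted p = 6.61e-06). The small domains at chr13:12352726-12363400 and chr13:12364876-12371600 both had none of the 4 histone marks in any CM library, and lay end to end with the 59.9 kb domain described above, 1475 bases from each other and 1700 bases from it.

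H3K27ac, the mark of active promoters and enhancers, covered more of the long domains at CM than at any earlier stage. Its mean cover was 23.5% ± 3.34 at ESC, 22.2% ± 0.402 at MES, 23.1% ± 0.924 at CP and 33.2% ± 4.69 at CM (SD over 2 libraries per stage), and both CM libraries, at 29.9% and 36.5%, lay above the other 6, whose highest was 25.9%. Over the shorter domains mean H3K27ac cover was also highest at CM: 75.6% at ESC, 83.7% at MES, 79.2% at CP and 87.2% at CM. The rise in mean cover was thus not particular to long domains. H3K27ac was present in both CM libraries in 322 of the 375 domains (85.9%), against 95.2% of all domains. In limma's test over the 8 libraries, 32 of 338 long domains tested (9.47%) were called higher at CM than at ESC and 9 (2.66%) lower, against 3.8% higher and 0.873% lower among all 5498 domains tested. The 32 had a median gain of 48.4 points, from 3.45 to 94.4, and 3 of the 32 and 3 of the 9 met the filter of 2 libraries only through the stage where they are high. Of the 32, 11 were among the domains with no RNAPII Ser5P in ESC and MES, and 12 had it in every earlier library. The count of 32 depended on the libraries: it was 59 without ESC replicate 1, 12 without ESC replicate 2, 17 without CM replicate 2 and 38 without CM replicate 1, and 20 with the replicate number in the fit.

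The largest H3K27ac gains were at long domains near the lower end of the length range, all chosen here after their values were seen. Gains are in percent of a domain's bases, so a block of a given size counts for more in a shorter domain. At chr5:139853126-139859400, of 6275 bases, H3K27ac covered 100% in both CM libraries, against 11.2% and 0% in ESC (94.4 points, SE 8.67, adjusted p = 0.0107 with limma), and RNAPII Ser5P covered 0% in ESC, 3.59% and 0% in MES, 8.76% and 2.39% in CP and 17.9% and 100% in CM. On chromosome 2, 2 domains with another long domain between them had no H3K27ac in ESC: it covered 88.7% and 89.8% in CM at chr2:163183576-163192175 and 79.9% and 100% in CM at chr2:163216526-163224750, against 0% in both ESC libraries at each (adjusted p = 0.0349 and 0.0167). The domain between them, chr2:163197326-163211750, had H3K27ac over 9.71% and 17.7% in CM, against 4.33% and 0% in ESC, and did not pass (adjusted p = 0.178 with limma). Of the outer 2, only the second held a wide block of H3K4me3, 64.4% and 60.5% in CM against 0% in both ESC libraries. Among the 9 that fell, chr17:39979776-39985900 stood apart, and it entered the test only through ESC. H3K27ac covered 0% of it in CM and 100% and 99.2% in ESC, while H3K27me3 and H3K4me3 each covered at least 97.6% in all but 1 of their libraries, a pattern of all or nothing that was not followed up.

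H3K4me3 cover differed little between the stages on average. Its mean cover of the long domains was 30.9% ± 4.22 at ESC, 26.4% ± 2.63 at MES, 26.9% ± 1.45 at CP and 27.1% ± 0.723 at CM (SD over 2 libraries per stage). It was in every library of all 4 stages in 299 of the 375 domains (79.7%), against 91.6% of all 5650. In limma's test, 8 of 336 long domains (2.38%) were called higher at CM than at ESC and 18 (5.36%) lower, against 0.925% higher and 0.944% lower among all 5404 tested. The 18 had a median difference of -13.5 points, but 7 of the 18 and 1 of the 8 met the filter of 2 libraries only through the stage where they are high. The 8 included 3 with H3K27me3 in every ESC library, of which 2 are described below. The number lower was 15 without CM replicate 1 but 4 without CM replicate 2, 7 without ESC replicate 1, 5 without ESC replicate 2 and 7 with the replicate number in the fit.

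H3K4me1, the mark of enhancers and promoter flanks, was present more often in long domains than among all domains. It was in every CM library in 230 of the 375 (61.3%), against 14.8% of all domains, and in every ESC library in 128 (34.1%), against 5.1%; how much of this comes from length alone was not tested. Mean cover was 10.7% ± 3.30 at ESC, 12.3% ± 1.49 at MES, 14.2% ± 4.39 at CP and 16.9% ± 4.02 at CM (SD over 3 libraries per stage). In a limma test added after the values were seen, 37 of 351 long domains (10.5%) were called higher at CM than at ESC and 5 (1.42%) lower, against 7.21% higher and 0.491% lower among all 2650 tested. The median gain of the 37 was 42.4 points, and 3 of the 37 and 1 of the 5 met the filter only through the stage where they are high. The count was 11 without replicate 2 and 16 without replicate 3 of all stages.

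**Figure D5:**
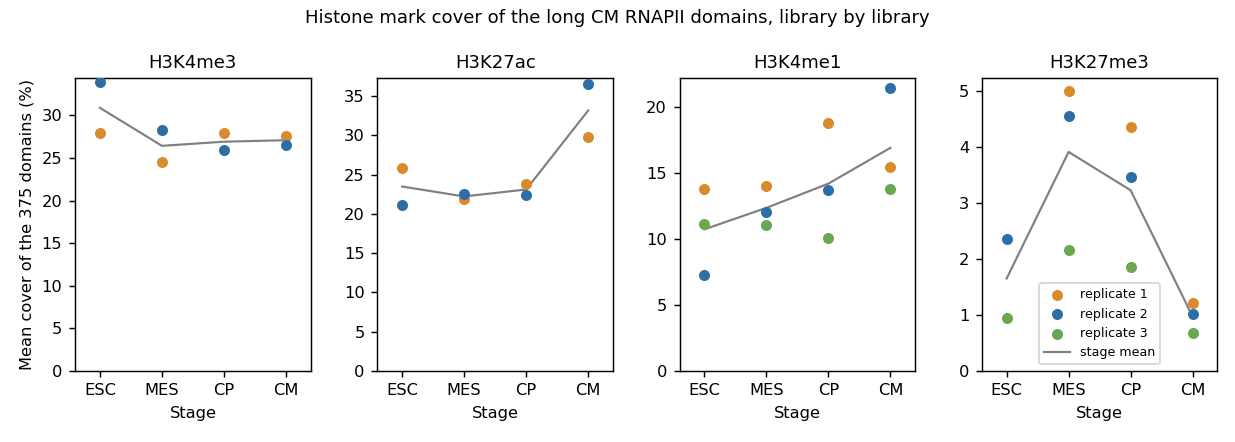
Mean percent of bases of the 375 long CM domains inside called regions of 4 histone marks, by stage, with 1 point per library coloured by replicate number and a line through stage means; the vertical scales differ. H3K27ac is highest in both CM libraries, H3K4me3 lies between 24.6% and 33.9% in all libraries, and H3K27me3 is highest in MES and lowest in CM.

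In 53 long domains (14.1%, against 4.76% of all) there was no H3K4me3 in either CM library, and 42 (11.2%, against 2.53%) had neither H3K4me3 nor H3K27ac in any CM library. The longest 3 without H3K4me3 were the 122 kb, 91.3 kb and 70.5 kb domains described above. As a class the 53 were hardly shorter or longer than the rest, with a median of 10675 bases, against 10150 in the 317 with H3K4me3 in both CM libraries. Replicate 1 covered less of them, 5.47% of the bases, against 22% in the 317, while replicate 2 covered 82.7%, against 86.8%. They lay close to marked polymerase: the nearest CM domain of any length with H3K4me3 in both CM libraries was a median of 11150 bases away. From one of the 317, the nearest other such domain of any length was a median of 43850 bases away. A domain of this kind was within 50 kb for 48 of the 53 and for 172 of the 317. In 14 of the 53 both ESC libraries had H3K4me3, and in 17 RNAPII Ser5P was in no ESC and no MES library.

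Few of the long domains had a Polycomb history, though more than among all domains. H3K27me3 was found in every ESC library in 20 of the 375 (5.33%), against 1.24% of all, in every MES library in 47 (12.5%), against 3.27%, in every CP library in 30 (8.0%), against 2.25%, and in every CM library in 5 (1.33%), against 0.496%. In 274 (73.1%), against 87.8%, no library of any stage had it. Mean cover was low throughout, 1.65% ± 1.01 at ESC (SD, n = 2), 3.91% ± 1.52 at MES, 3.22% ± 1.26 at CP and 0.966% ± 0.266 at CM (SD, n = 3 each). ESC replicate 3 and CM replicate 3 had the fewest called regions, 3252 and 2929, against 9373 to 38392 in the other H3K27me3 lists, and the share with the mark in every ESC library was 10.9% without replicate 3. Of the 20 domains, 13 had no H3K27me3 in any CM library, against 37 of the 70 such domains of any length. RNAPII Ser5P was in ESC in 11 of the 20, against 85.9% of all domains. H3K4me3 was in every library of all stages in 19, near the 91.6% of all domains. Both marks were thus called in stem cells, by at least 1 base, in nearly all of the 20, but H3K4me3 does not set them apart.

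Among these was chr8:59796601-59813025, of 16.4 kb, where H3K4me3 and H3K27ac passed the test. H3K27me3 covered 90.6% and 5.63% of it in ESC, 67%, 97.0% and 54.9% in MES, 46.3%, 26.3% and 0% in CP, and 0% in all 3 CM libraries. H3K4me3 covered 84% and 86.1% in CM, against 15.4% and 13.4% in ESC (70.7 points, SE 2.72, adjusted p = 0.00112 with limma), and H3K27ac 75.8% and 92.8% in CM, against 1.52% and 0% in ESC (83.6 points, SE 8.53, adjusted p = 0.0141). RNAPII Ser5P covered 0% in ESC, 1.67% and 1.07% in MES, 21.8% and 24.7% in CP, and 11.1% and 94.8% in CM. The groups did not overlap for H3K4me3 or H3K27ac, but the ESC libraries were far apart in H3K27me3 and its difference did not pass the test (CM minus ESC adjusted p = 0.944, CM minus MES 0.0803). A smaller domain, chr18:11049351-11055950, named after its values were seen, had a like pattern. H3K4me3 covered all of it in both CM libraries, against 41.3% and 37.9% in ESC (60.4 points, SE 1.40, adjusted p = 0.000197), and H3K27me3 covered 0% in the CM libraries, against 80.3% and 25.4% in ESC (adjusted p = 0.494).

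The rest of the 6 longest domains with H3K27me3 in every ESC library had a lower mean H3K27me3 cover in ESC. At chr1:192982251-193010075, of 27.8 kb, H3K27me3 covered 14.6% and 0.809% in ESC, 19.6%, 19.9% and 8.72% in MES, 11.8%, 14.1% and 5.39% in CP and 0% in CM, while H3K4me3 lay between 12.3% and 18.1% in all 8 libraries. RNAPII Ser5P of that domain was 53.3% and 97.6% in CM, against 7.19% in ESC, and it was 1 of the 30 domains with at least 50% cover in CM replicate 1. At chr5:32434701-32463475, of 28.8 kb, and chr13:53053801-53077800, of 24 kb, H3K27me3 covered 0% in CM, against 9.82% and 0.174% in ESC at the first and 8.54% and 0.104% in ESC at the second. At chr1:75355926-75373325, of 17.4 kb, RNAPII Ser5P was absent in ESC and MES and covered 5.60% and 4.45% in CP and 4.31% and 100% in CM; H3K27ac there covered 24.3% and 24.7% in CM, against 3.74% and 0% in ESC, which just missed the threshold (adjusted p = 0.0501 with limma). The domain on chromosome X at chrX:166422776-166437450 differed from these. RNAPII Ser5P covered 91.5% to 94.5% of it in every library before CM and 58.8% and 10.6% in CM, and H3K27me3 covered 41.9% in CM replicate 1 and 0% in the other CM libraries.

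Across the long domains H3K27me3 at CM was tested against ESC and, as a comparison added after the values were seen, against MES. At least 2 libraries held the mark in 83 long domains. By limma, at an adjusted p under 0.05, 0 of these were called lower at CM than at ESC, against 0% of all 460 tested. An unadjusted p under 0.05 was found for 2 of the 83 and for 21 of all 460. The count of 0 was higher without ESC replicate 3 and without replicate 3 of all stages, fits that leave 1 ESC library. Shares over all domains in those fits are not at hand, so long domains cannot be set against the rest there. Against MES, in the fit by stage alone, 7 of the 83 (8.43%) were called lower at CM, against 9.13% of all 460 tested. Long domains were thus not called more often than the rest in that fit. Of the 83, 80 had a negative difference, but in most of them no CM library held the mark, so the difference could not be positive. The sign therefore says little, and its share over all 460 is not at hand. The median difference was -7.93 points over the 83 and -18.6 points over all 460 tested, so the fall was not larger in long domains. The replicate numbers were taken to pair the CM and MES libraries, which is not certain. With the replicate number in the fit 15 of the 83 were called lower. The share over all domains in that paired fit is not at hand, so long domains cannot be set against the rest there. The same holds for the fits with libraries left out. In the fit by stage alone the count was 32 without MES replicate 3, 2 or 3 without any other single CM or MES library, and 0 without replicate 2 of all stages. All 7 also had H3K4me3 in every library of all stages and RNAPII Ser5P in every library before CM. Most domains did so too, 91.6% and 79.4% of all 5650, so these are no trait of the 7. Among them, picked after their values were seen, at chr13:51940501-51946900, H3K27me3 covered 0% in CM, against 74.6%, 67.2% and 36.3% in MES, with 0% in both ESC libraries; it is 1 of 3 of the 7 that met the filter of 2 libraries only through MES. At chr10:80391426-80396675 it covered 2.38%, 0% and 0% in CM, against 69%, 67.1% and 51% in MES (61.6 points lower, SE 6.27, adjusted p = 0.000825), and RNAPII Ser5P was 42.4% and 100% in CM.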

How the data were processed

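The deposited lists hold the enriched regions of 46 of 54 libraries, and the 8 whole cell extract libraries have none, so no background control was compared. Per the submitters' processing notes, reads were aligned with Bowtie to mm9; the version, region caller and settings are not given in the sources used here. Region lengths are given in bases by the authors (a unit of the kind other), and peak heights and totals were taken as signal as deposited by the authors. Depth is unknown, so no counting intervals are given. The H3K27ac CM libraries carry an ESC cell type label and were grouped as CM by title, source and day.

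Cover was computed with Python 3.11.15, and presence means at least 1 base. Differences were fitted with limma 3.58.1 in R 4.3.3 on percent cover over all joined CM domains with the mark in at least 2 libraries, with Benjamini-Hochberg adjustment and a threshold of 0.05, and tested on simulated data. Printed starts are 1-based. The named domains are the 12 longest, the longest by class and those beside the 5 kb limit. The domains, lists and tests were chosen with earlier results of these data known. Replicate numbers were taken to pair the H3K27me3 CM and MES libraries, whose same-numbered deviations correlated at 0.275 to 0.402 over the long domains. Over all stages, same-numbered H3K27me3 libraries correlated at 0.102 to 0.649 and differently numbered ones at -0.608 to 0.473. The pairing is therefore not certain. Same-numbered deviations of the RNAPII Ser5P CP and MES libraries correlated at 0.608.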

Additional observations from a re-analysis of the deposited data

How the results depend on the processing

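The number of long domains was 319 with regions joined over 500 bases and 469 over 2 kb, 365 with equal numbers of top regions, 242 without regions under 500 bases, 36 with 5 kb covered by each CM library, and 53 to 438 in a single CM library. Long domains without RNAPII Ser5P in ESC and MES made up 18.9% with presence at 10% of the bases and 16.0% with equal numbers of top regions, and 10.1% without replicate 1; without replicate 2 no ESC library is left. The share with H3K27me3 in every ESC library was 1.6% with presence at 10% and 5.33% to 10.9% with a replicate number left out. The share with H3K4me3 in both CM libraries was 73.3% with presence at 10% and 84.5% to 85.9% with 1 CM library.

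Counts of members called by limma moved as follows, and the shares over all domains under these settings are not at hand. For RNAPII Ser5P, CP over MES, the count of 1 became 2 with equal numbers of top regions, 5 without regions under 500 bases, 2 without a filter and 7 on the log2 scale, and 0 with each library left out. For H3K27ac, CM over ESC, the 32 became 50 with equal numbers of top regions and 12 to 59 with a library left out. For H3K4me3, CM over ESC, the 8 became 5 without regions under 500 bases and 5 to 9 with a library left out. For H3K27me3, CM under ESC, the 0 became 2 on the log2 scale and 0 to 11 with a library or replicate number left out. For H3K27me3, CM under MES, the 7 became 4 with equal numbers of top regions, 3 without regions under 500 bases, 1 without a filter, 28 on the log2 scale and 0 to 35 with libraries left out. For H3K4me1, CM over ESC, the 37 stayed within 32 to 43 under the other settings and ran from 11 to 51 with libraries left out. With the replicate block the counts, in the same order, were 0, 20, 8, 0, 15 and 42. Replicate numbers were shared by 2 pairs in the first 4 comparisons, with correlations of 0.608, 0.0843, 0.274 and 0.102 to 0.188. For H3K4me1 they were shared by 3 pairs, with -0.131 to 0.11. The RNAPII Ser5P value was above the 0.275 to 0.402 of the H3K27me3 CM and MES pairs, and the H3K4me3 value lay at the edge of that range. Differently numbered H3K27me3 libraries of different stages reached 0.473, so values in that range do not settle pairing. Pairing is not shown for H3K27ac, for H3K27me3 CM and ESC, or for H3K4me1, and is not certain for the others. The causes were not tested. Leaving out a replicate number of RNAPII Ser5P, H3K27ac or H3K4me3 leaves 1 library per stage and could not be fitted. Fits without single libraries, and the last 2 comparisons, were chosen after seeing the data. With 1 ESC library of RNAPII Ser5P and unknown depth, absence from a list is not absence of the protein.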
